A study of Homo sapiens with 4 samples.

Results

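Serum amyloid A and complement genes were examined in SUM159 cells, a human triple-negative breast cancer line of the metaplastic type, with and without disruption of *NOS2*, the gene of inducible nitric oxide synthase (iNOS). The 9 genes, *SAA1*, *SAA2*, *C3*, *CFB*, *C1R*, *C1S*, *CD46*, *CD55* and *CD59*, were found by their GENCODE gene symbols among the 57500 genes of each count file, and all 9 were present. RNA-seq had been done on 1 library of parental SUM159 cells and on 1 library from each of 3 NOS2KO clones, labelled 1, 5 and 6. The clones were derived with a double nickase CRISPR plasmid against *NOS2*, puromycin, and screening by iNOS immunoblot and nitrite/nitrate assay, and the labels name no further treatment of any of the 4 cultures. Each clone descends from a selected cell, and no parental cells carried through transfection and selection were sequenced, so disruption of *NOS2* and clonal selection cannot be told apart.

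Serum amyloid A proteins are acute phase proteins, secreted mainly by the liver in inflammation and also made by epithelial and tumor cells in response to inflammatory cytokines. Complement is a cascade of plasma proteins: the C1 proteases start the classical pathway, C3 is the central component on which all activation routes converge, and factor B forms with C3b the convertase of the alternative pathway. Nucleated cells protect themselves with membrane regulators, of which CD46 helps factor I to cleave C3b, CD55 (decay-accelerating factor) dissociates the convertases and CD59 blocks assembly of the membrane attack complex.

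The 4 libraries held between 90467395 and 122171287 counts assigned to genes. The targeted gene *NOS2* had 2 counts in parental cells, 3 counts in clone 1, 18 counts in the library labelled clone 5 and 1 count in clone 6. At this depth *NOS2* mRNA did not separate the clones from the parental cells, and its highest value, 0.169 CPM, was in the library labelled clone 5. Counts this low do not decide whether a knockout label holds, and the clones were screened by protein and nitrite/nitrate rather than by mRNA. The paper reports that its NOS2KO clones lacked iNOS protein on immunoblots and made less nitrite/nitrate. The counts do not check iNOS protein. Of the defining markers, the mesenchymal genes *VIM* (at least 1655 CPM, counts scaled to the library total) and *FN1* (at least 2155 CPM) were high in every library. Summed over 5 mesenchymal markers the level was 4064 CPM in the parental library and 6454, 6120 and 5972 CPM in clones 1, 5 and 6. Of these 5 markers, 3 had log2 fold changes above 0 (*VIM*, *FN1* and *SNAI2*) and 2 below (*CDH2* and *ZEB1*). None of the 5 rose or fell by the criterion used below. Of 7 epithelial markers, *CDH1* did not exceed 44 counts and *EPCAM* 28 in any library, *KRT8* (253.9 to 806.5 CPM) and *KRT18* (303.0 to 467.3 CPM) were high in every library, and *KRT14* fell, by the criterion used below, from 358 counts in parental cells to 24, 1 and 0 in clones 1, 5 and 6. Their summed level was 561.1 CPM in the parental library and 841.5 to 1275 CPM in the clones. Of the 7 epithelial markers, 6 had log2 fold changes above 0 (median of the 7, 1.61), and none rose by that criterion. *ESR1* did not exceed 79 counts and *PGR* 3, while *ERBB2* had between 4365 and 11320 counts. Summed over 4 fibroblast markers the level was 142.8 CPM in the parental library and 170.5, 189.2 and 458.1 CPM in clones 1, 5 and 6, and over 3 endothelial markers it was at most 16.3 CPM in any library. Markers of hepatocytes, the main source of serum amyloid A in the body, were near 0, with 2 to 12 counts per library summed over 5 genes. Of 7 leukocyte markers, *CD3E* did not exceed 8 counts in any library, *CSF1R* 57 and *CD68* 29. *CD14*, a monocyte marker, was at 12.8 CPM in the parental library and at 2.29, 4.28 and 11.3 CPM in clones 1, 5 and 6, and did not pass. *PTPRC* went the other way. It was at 4.45 CPM in the parental library and at 68.4, 105.4 and 41.7 CPM in clones 1, 5 and 6, and met the same criterion (log2 fold change 4.01, edgeR adjusted p = 0.282). The summed level of the 7 leukocyte markers was 17.7 CPM in the parental library and 53.7 to 110.9 CPM in the clones, and the part of these marker levels in the results below was not tested.

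Levels are given as CPM after scaling by the trimmed mean of M values (TMM). Differences were taken from a quasi-likelihood fit of edgeR over 22511 genes that passed a filter on low counts, among them all 9 genes examined here. A gene is said to have risen or fallen where its unadjusted p was under 0.05 and its log2 fold change was above 1 or below -1. By that criterion *C3*, *CFB* and *CD55* fell in the NOS2KO clones, *CD59* rose, and 5 genes did not pass. The background is wide: 5.34% of all genes tested fell and 4.24% rose by the same criterion. None of the 9 (0 genes) had a Benjamini-Hochberg adjusted p under 0.05 in edgeR, where 4 had an unadjusted p under 0.05 and the background share of genes passing adjustment was 0.00444%. In the Wald test of DESeq2, 4 had an adjusted p under 0.05 (*C3*, *CFB*, *CD55* and *CD59*), against 4.86% of all genes. Because the parental cells were sequenced once, all spread in these tests comes from the 3 clones, and 0.25 is the smallest p that exact permutation allows with 1 library against 3.

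In direction alone, *SAA1*, *SAA2*, *C3*, *CFB* and *CD55* were below the parental library in all 3 clones, as were 30.5% of all genes tested. *CD59* was above it in all 3 clones, as were 28.6% of all genes. *C1R*, *C1S* and *CD46* lay on both sides. The median log2 fold change of the 9 genes was -1.81, and that of all genes tested was 0.10.

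**Figure D1:**
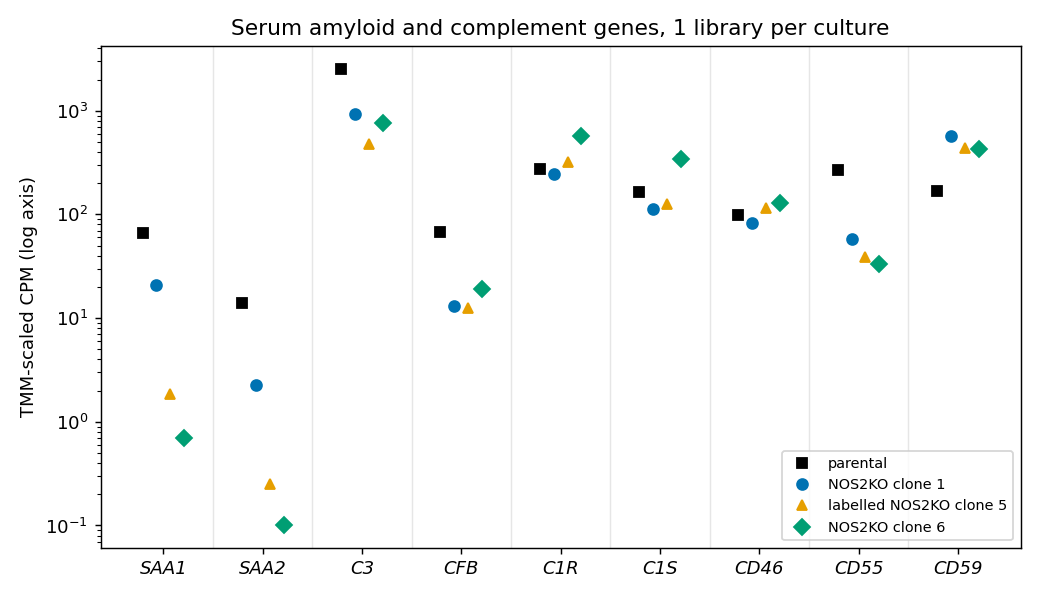
Levels of the 9 genes in TMM-scaled CPM on a log axis, with 1 point for each library (square, parental cells; circle, clone 1; triangle, the library labelled clone 5; diamond, clone 6). The parental square is the highest point for *SAA1*, *SAA2*, *C3*, *CFB* and *CD55* and the lowest for *CD59*, and it lies among the clones for *C1R*, *C1S* and *CD46*.

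The serum amyloid A genes had the widest range. *SAA1* (ENSG00000173432, chr11:18266174-18269977 of GRCh38, plus strand) encodes a major acute phase apolipoprotein of high-density lipoprotein. It was at 65.6 CPM in the parental library, 20.8 CPM in clone 1, 1.87 CPM in the library labelled clone 5 and 0.700 CPM in clone 6. The parental level was above every clone, but clone 1 lay much nearer to it than the other two clones did. In fold terms, *SAA1* was 3.16-fold lower in clone 1, 35.2-fold lower in the library labelled clone 5 and 93.8-fold lower in clone 6. The clones also differed from each other, clone 1 being 11.1-fold above the library labelled clone 5 and 29.7-fold above clone 6. With that spread the fitted log2 fold change was -3.07 (SE 1.83), its 95% interval ran from -7.86 to 1.71, and it did not pass (edgeR adjusted p = 0.535, DESeq2 adjusted p = 0.293). With clone 1 left out, *SAA1* had a log2 fold change of -5.67 and met the criterion, at an edgeR adjusted p of 0.112.

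*SAA2* (ENSG00000134339, chr11:18239223-18248643, minus strand) encodes the closely related second acute phase isoform. The genes stand 17530 bp apart on opposite strands, head to head. *SAA2* was at 14.1 CPM in the parental library, 2.25 CPM in clone 1, 0.253 CPM in the library labelled clone 5 and 0.101 CPM in clone 6. The order of the 4 libraries was that of *SAA1*. The lowest values rest on few reads, 27 counts in the library labelled clone 5 and 10 counts in clone 6, where the 95% counting interval of the log2 ratio to the parental library ran from -8.18 to -6.23. Over the clones the log2 fold change was -4.01 (SE 1.71, 95% interval -8.47 to 0.44), just outside the threshold (unadjusted p = 0.0521 and adjusted p = 0.438 in edgeR). It met the criterion without clone 1 (-6.29), without clone 6 (-3.49) and in the DESeq2 fit (-3.99, adjusted p = 0.101), so its side of the threshold depends on the setting.

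Similarity of the paired genes bears on these counts. Of the 150-base windows of *SAA1* transcripts, 13.2% also occur in *SAA2*, and such reads could be assigned to either gene or left uncounted. Counts of *SAA1* were 4.66 times those of *SAA2* in the parental library and 6.90 to 9.24 times in the clones. With both genes summed before the fit, the log2 fold change was -3.20 (edgeR adjusted p = 0.520), close to that of *SAA1* alone. The constitutive family member *SAA4* had 29 counts in parental cells, 1 count in clone 1 and 0 in the others, and it met the criterion with a fitted fold that rests on the prior count. Against a floor of 3 counts per library, *SAA4* was at least 11.4-fold lower in the library labelled clone 5 and at least 10.5-fold lower in clone 6. The readthrough transcript *SAA2-SAA4*, which shares 12.0% of the exon bases of *SAA2*, had at most 18 counts and did not pass.

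*C3* (ENSG00000125730, chr19:6677704-6730562, minus strand), the gene of the central complement component, was the most abundant of the 9 genes in the parental cells. It was at 2543 CPM there, 921.2 CPM in clone 1, 479.6 CPM in the library labelled clone 5 and 770.5 CPM in clone 6. The clones did not overlap the parental value, and they lay within a 1.92-fold range of each other. *C3* fell by 1.81 on the log2 scale (SE 0.48, 95% interval -3.05 to -0.57, edgeR adjusted p = 0.332, DESeq2 adjusted p = 0.0254). Its transcripts made up 0.254% of all counts of the parental library and 0.0504% to 0.0865% in the clones. Per kilobase of exon, *C3* ranked 91 among all genes in the parental cells, against 409 to 673 in the clones, so it stayed an abundant transcript after the fall. No 150-base window of *C3* occurs in another annotated gene and no other gene overlaps its exons, so its counts are free of that ambiguity.

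*CFB* (ENSG00000243649, chr6:31945650-31952084, plus strand) encodes factor B, the protease subunit of the alternative pathway convertase. It was at 68.3 CPM in the parental library, 13.1 CPM in clone 1, 12.5 CPM in the library labelled clone 5 and 19.0 CPM in clone 6. All clones were well below the parental library, and clone 6 was the highest of the 3. *CFB* fell by 2.20 on the log2 scale (SE 0.37, 95% interval -3.17 to -1.23, edgeR adjusted p = 0.275, DESeq2 adjusted p = 0.000402). The annotation places a readthrough gene, *AL645922.1*, over 45.0% of the exon bases of *CFB*, but it had 1 count in the parental library and 0 in the clones. If fragments in the shared exons were left uncounted, which depends on a counting option not given in the sources used here, the levels of *CFB* are too low in all libraries alike.

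Of the other components that lead to or act with C3, *CFD*, the gene of the protease that cleaves factor B, was at 5.73 CPM in the parental library and 6.40 to 15.4 CPM in the clones, and it did not pass (log2 fold change 0.90, edgeR adjusted p = 0.614). *C2*, the classical pathway counterpart of *CFB* and its neighbor on chromosome 6, was at 4.89 CPM in the parental library, 1.03 CPM in clone 1, 10.8 CPM in the library labelled clone 5 and 1.86 CPM in clone 6. *C2* thus lay on both sides of the parental level, unlike *CFB*. Of the 4 genes listed as C3 and the alternative pathway, 2 fell (*C3* and *CFB*) and none rose, beside 5.34% and 4.24% of all genes tested. Both that fell are among the 9 genes already described, and the other 2 had log2 fold changes above 0.

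The initiating proteases of the classical pathway did not pass. *C1R* (ENSG00000159403, chr12:7080209-7092607, minus strand) encodes the C1 subunit that activates C1s. It was at 276.7 CPM in the parental library, 245.1 CPM in clone 1, 322.9 CPM in the library labelled clone 5 and 565.3 CPM in clone 6. Only clone 6 stood apart. The log2 fold change of *C1R* was 0.45 (SE 0.55, 95% interval -0.98 to 1.88, edgeR adjusted p = 0.777). Of its exon bases, 11.8% are shared with the neighboring *C1RL*, which was at 61.5 to 136 CPM.

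*C1S* (ENSG00000182326, chr12:6988259-7071032, plus strand) encodes the protease that cleaves C4 and C2, and its end lies 9176 bp from that of *C1R*. It was at 163.9 CPM in the parental library, 111.8 CPM in clone 1, 124.9 CPM in the library labelled clone 5 and 342.2 CPM in clone 6. As for *C1R*, clone 6 was the highest library and clone 1 the lowest. The log2 fold change of *C1S* was 0.24 (SE 0.74, 95% interval -1.70 to 2.2, edgeR adjusted p = 0.921), and it turned to -0.47 without clone 6. Counts of *C1R* were 1.65 to 2.58 times those of *C1S* in the 4 libraries.

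**Figure D2:**
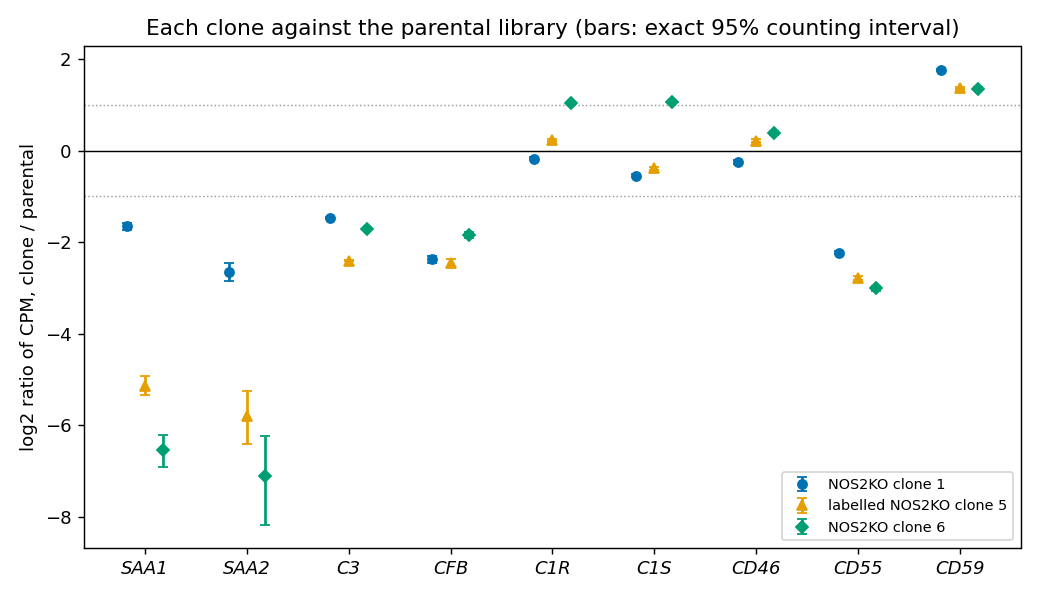
Log2 ratio of TMM-scaled CPM in each NOS2KO clone to the parental library for the 9 genes, with 95% exact (Clopper-Pearson) intervals that cover counting error only, and dotted lines at -1 and 1. *SAA1* and *SAA2* spread from -1.66 to -7.12, *C3*, *CFB* and *CD55* lie between -1.46 and -3.01, *CD59* lies between 1.35 and 1.76, and *C1R* and *C1S* pass 1 in clone 6 alone.

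The membrane regulators split 3 ways. *CD55* (ENSG00000196352, chr1:207321508-207386804, plus strand), which encodes decay-accelerating factor, was at 270.6 CPM in the parental library, 57.6 CPM in clone 1, 39.1 CPM in the library labelled clone 5 and 33.6 CPM in clone 6. All clones were far below the parental level. *CD55* fell by 2.64 on the log2 scale (SE 0.40, 95% interval -3.68 to -1.60, edgeR adjusted p = 0.265, DESeq2 adjusted p = 5.54e-05), and it had the smallest p of the 9 genes in both fits. In fold terms it was 4.70-fold lower in clone 1, 6.92-fold lower in the library labelled clone 5 and 8.05-fold lower in clone 6.

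*CD59* (ENSG00000085063, chr11:33698261-33736445, minus strand), the gene of the inhibitor of the membrane attack complex, was at 169.4 CPM in the parental library, 574.2 CPM in clone 1, 436.3 CPM in the library labelled clone 5 and 431.8 CPM in clone 6. Every clone was above the parental library, and those labelled 5 and 6 did not differ from each other beyond counting error (log2 ratio 0.015, 95% interval -0.0040 to 0.034). *CD59* rose by 1.51 on the log2 scale (SE 0.34, 95% interval 0.62 to 2.39, edgeR adjusted p = 0.332, DESeq2 adjusted p = 0.00910). Per kilobase it became the first of the 9 genes in clone 1 and in the library labelled clone 5.

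*CD46* (ENSG00000117335, chr1:207752057-207795513, plus strand), the gene of membrane cofactor protein, lies 365252 bp from *CD55* in the same regulator cluster of chromosome 1. It was at 99.5 CPM in the parental library, 83.3 CPM in clone 1, 115.7 CPM in the library labelled clone 5 and 129.2 CPM in clone 6. The parental value lay among those of the clones. The log2 fold change of *CD46* was 0.14 (SE 0.35), and its 95% interval, -0.78 to 1.06, leaves out a fall of the size of that of *CD55* (edgeR adjusted p = 0.901). *CR1*, the remaining membrane regulator of the list, did not pass the filter on low counts.

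The opposite changes of *CD55* and *CD59* turned their order over. Counts of *CD59* were 0.626 times those of *CD55* in the parental library and 9.96, 11.2 and 12.9 times in clones 1, 5 and 6. Per kilobase, where genes of different length can be set side by side, *CD55* stood at 48.6 CPM per kb and *CD59* at 34.3 in the parental library, against 6.04 to 10.4 and 87.4 to 116 in the clones. Both proteins are held in the membrane by a glycosylphosphatidylinositol (GPI) anchor. Of 28 genes of GPI anchor synthesis, 27 were tested, 1 fell (*PIGW*, an acyltransferase of the pathway, by 1.03 on the log2 scale with edgeR adjusted p = 0.372) and none rose, with a median of 0.14.

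The order per kilobase in the parental cells was *C3*, *SAA1*, *C1R*, *CD55*, *CD59*, *C1S*, *CFB*, *CD46* and *SAA2*. *C1R* (48.8 CPM per kb) and *CD55* (48.6 CPM per kb) were neighbors in that order that could not be ranked. *SAA1* was the second of the 9 genes in the parental library (85.8 CPM per kb), the fourth in clone 1 (27.2 CPM per kb) and the eighth in clone 6 and in the library labelled clone 5. *SAA2* was last in every library.

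Sequence upstream of 2 of the genes that moved is shown because they moved in opposite directions and because motifs of inflammatory transcription factors could be looked up there. The 250 bases before a transcription start, from RefSeq promoter windows (GRCh38.p14), were found for 5 of the 9 genes, *CFB*, *C1R*, *CD46*, *CD55* and *CD59*. The *CFB* window is chr6:31945845-31946094 on the plus strand, and the *CD59* window chr11:33736480-33736729 on the minus strand. Both are written 5′ to 3′ with the bases of motif matches in capitals.
CFB: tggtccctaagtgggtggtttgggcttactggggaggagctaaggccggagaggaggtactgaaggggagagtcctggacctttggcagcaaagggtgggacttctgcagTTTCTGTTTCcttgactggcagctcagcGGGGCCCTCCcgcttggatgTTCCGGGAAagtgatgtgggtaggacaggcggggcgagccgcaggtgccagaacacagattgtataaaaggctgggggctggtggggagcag
CD59: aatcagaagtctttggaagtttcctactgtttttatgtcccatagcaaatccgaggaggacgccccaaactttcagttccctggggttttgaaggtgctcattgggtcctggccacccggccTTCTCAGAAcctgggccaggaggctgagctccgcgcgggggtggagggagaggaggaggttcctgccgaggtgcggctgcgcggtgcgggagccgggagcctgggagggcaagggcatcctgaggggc
In the *CFB* window the capitals mark, in order, an interferon-stimulated response element (GAAA, any 2 bases, GAAA, here read on the opposite strand) with its first base at -140 from the start, a kappaB motif at -112 and an interferon-gamma activated sequence (GAS, TTCNNNGAA) at -92. In the *CD59* window they mark a GAS motif at -128. Both strands were searched. Of 35116 windows of the same length, 3.02% held the response element, 9.96% a kappaB motif and 6.57% a GAS motif. The AP-1 motif TGANTCA (6.57% of windows), the cyclic AMP response element TGACGTCA (1.65%) and the C/EBP motif TTGCNNAA (9.05%) had no match in these windows. The windows of *CD55* and *CD46* held no match to any of the 6 motifs. *C1R* held C/EBP matches at -106 and -167 from its respective starts and a GAS match at -86, and other annotated starts of *CD59* held C/EBP and AP-1 matches. These matches are descriptions of letters, and binding was not measured.

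The complement system and the acute phase response were covered by 12 lists holding 139 genes, the 9 genes above included, and 115 were tested. With those 9 set aside, 106 genes were tested, 15 fell and 6 rose, 19.8% together, beside 9.58% of all genes tested. Their median log2 fold change was 0.18. The lists were chosen with earlier results of these data known, so the larger share is not a test of them. Levels also differ: 66 of these 130 list genes reached 10 CPM in a library, against 10709 of 57500 genes. Counts within any single list stand beside the same background, 5.34% of all genes that fell and 4.24% that rose. With the 9 genes counted, 18 fell and 7 rose, and 16 fell and 6 rose when the library labelled clone 5 was left out. Over all genes, 996 fell and 688 rose in that refit. When clone 1 was left out, 26 of the list genes fell and 11 rose. The numbers over all genes also went from 1202 to 1608 that fell and from 955 to 1791 that rose.

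In the classical pathway, 6 of 9 listed genes were tested, 2 rose and none fell, beside 4.24% and 5.34% of all genes tested. *C4A* and *C4B* encode the isotypes of C4, the substrate of C1s. *C4A* was at 16.4 CPM in the parental library, 53.0 CPM in clone 1, 55.3 CPM in the library labelled clone 5 and 106.1 CPM in clone 6, and rose by 2.12 on the log2 scale (SE 0.50, edgeR adjusted p = 0.343, DESeq2 adjusted p = 0.0124). *C4B* was at 11.4, 38.8, 31.8 and 68.2 CPM in the same order and rose by 2.02 (SE 0.51, edgeR adjusted p = 0.354). Since 87.6% of the 150-base windows of *C4A* occur in *C4B*, reads of the paired genes cannot be told apart for most of their length. The genes of C1q, the recognition subunit that C1r and C1s need, did not pass the filter, and *C1QA* had at most 4 counts.

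Of 14 listed soluble regulators, 9 were tested, 3 rose and none fell, beside 4.24% and 5.34% of all genes tested. All 9 had log2 fold changes above 0, with a median of 2.57, that of all genes tested being 0.10. Of these regulators, *CFI* rose while *C3* and *CFB* fell. *CFI* encodes factor I, the protease that cleaves C3b with the help of cofactors such as CD46, and was at 19.8 CPM in the parental library, 64.3 CPM in clone 1, 157.7 CPM in the library labelled clone 5 and 158.3 CPM in clone 6. Every clone was above the parental library, and clone 1 was the nearest to it. *CFI* rose by 2.68 on the log2 scale (SE 0.59, edgeR adjusted p = 0.339, DESeq2 adjusted p = 0.00296). *SERPING1*, the gene of the C1 inhibitor, had 790 counts in parental cells, 227 counts in clone 1, 739 counts in the library labelled clone 5 and 3937 counts in clone 6, and did not pass. Its highest value was in clone 6, the library that was also highest for *C1R*, *C1S* and the summed fibroblast markers (458.1 CPM), and the part of the latter was not tested. *CLU*, the gene of clusterin, was at 30.3 CPM in the parental library and 47.9 to 111 CPM in the clones, and did not pass (log2 fold change 1.55, edgeR adjusted p = 0.439).

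Terminal and lectin pathway genes were low. Of 7 terminal pathway genes 4 were tested and none passed, and the highest level in the list was 4.89 CPM, for *C7* in the library labelled clone 5. Of 8 lectin pathway genes 6 were tested and none passed, with *MASP1* at up to 8.99 CPM. Among complement receptors, 8 of 10 were tested and 1 fell, *C3AR1*, the C3a receptor, which had 432 counts in the parental library and 50 to 176 in the clones (log2 fold change -2.18, edgeR adjusted p = 0.413).

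Receptors of serum amyloid A were taken as a list of 7, all tested. *FPR2*, a formyl peptide receptor, had 168 counts in parental cells, 6 counts in clone 1 and 0 in both others, and fell by the criterion. Against a floor of 3 counts per library it was at least 66.0-fold lower in the library labelled clone 5 and at least 61.1-fold lower in clone 6. *P2RX7*, an ATP-gated channel, was at 14.1 CPM in the parental library, 0.392 CPM in clone 1, 1.96 CPM in the library labelled clone 5 and 3.95 CPM in clone 6, and did not pass (edgeR adjusted p = 0.448). *TLR4* (28.7 CPM in the parental library, 32.8 to 54.7 CPM in the clones) and *SCARB1* (235.5 and 203.9 to 235.1 CPM) did not pass either.

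**Figure D3:**
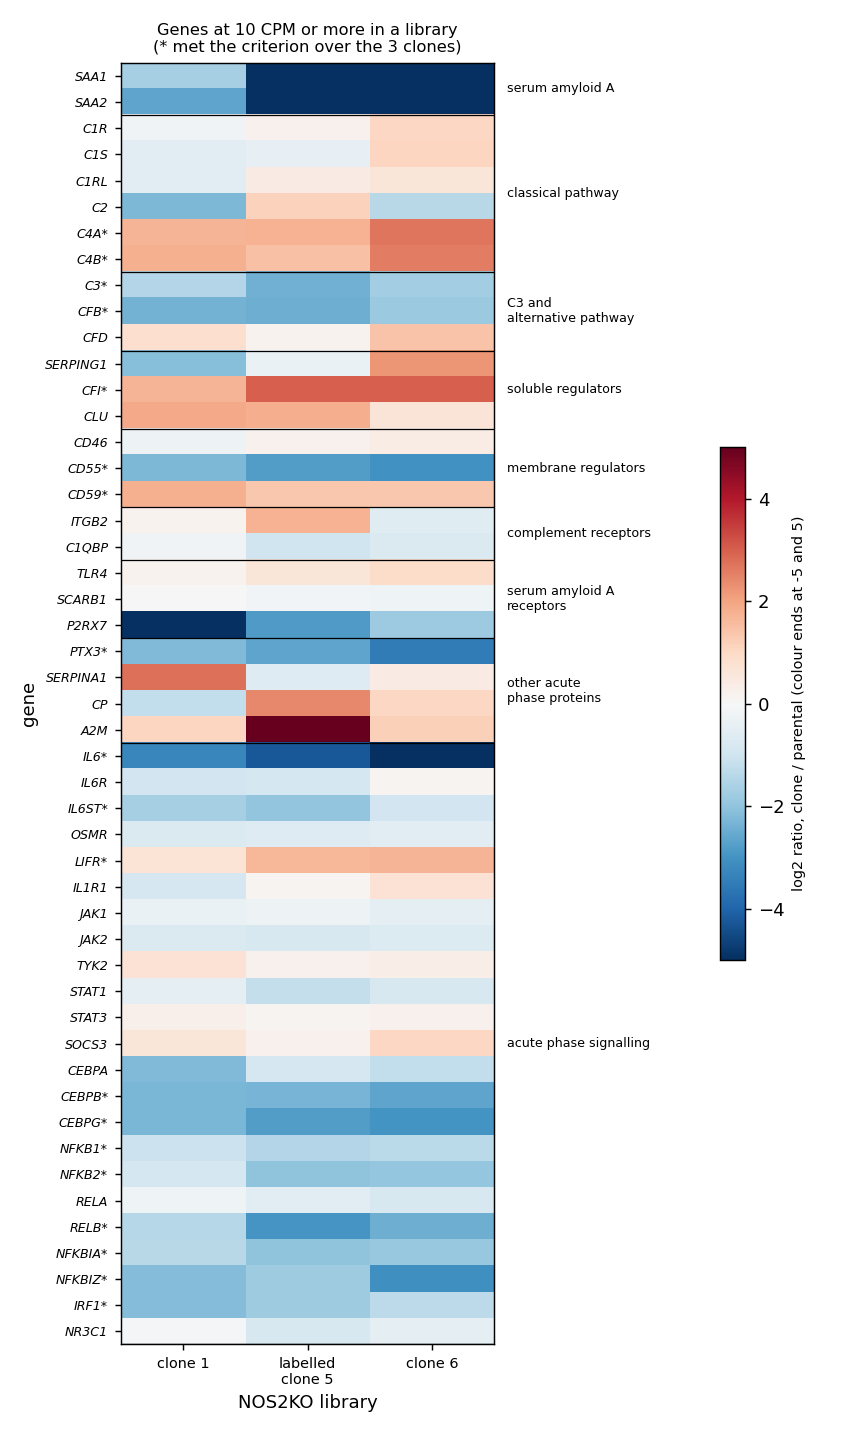
Log2 ratio of each NOS2KO clone to the parental library for 49 genes of the complement and acute phase lists with at least 10 CPM in a library, grouped by role (blue, below the parental library; red, above; the color scale ends at -5 and 5, and an asterisk marks genes that met the criterion). *C4A*, *C4B* and *CFI* are red in all 3 clones, *C3*, *CFB*, *CD55*, *PTX3*, *IL6* and most genes of the C/EBP and NF-kappaB groups are blue in all 3, and *C1R*, *C1S* and *SERPING1* change color between clones.

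Cytokines, receptors and transcription factors of acute phase signaling made up the list with the largest number of genes that fell, and it was longer than most lists. Of 24 genes, all tested, 10 fell and 1 rose (*LIFR*, the receptor of leukemia inhibitory factor, by 1.42 on the log2 scale), and the median was -0.77. Together 45.8% of the list met the criterion, beside 9.58% of all genes tested (5.34% fell and 4.24% rose). *IL6*, the cytokine that drives the acute phase response, was at 219.6 CPM in the parental library, 23.0 CPM in clone 1, 11.6 CPM in the library labelled clone 5 and 5.51 CPM in clone 6. It fell by 4.04 on the log2 scale (SE 0.79, edgeR adjusted p = 0.281, DESeq2 adjusted p = 0.000221). The 4 libraries stood in the order found for *SAA1* and *SAA2*, as they did for *CD55*, *PTX3*, *CEBPG* and *CEBPB*. For *CEBPB*, clone 1 and the library labelled clone 5 were close, at 137.3 and 134.1 CPM. *IL6ST*, *NFKB1*, *NFKB2*, *RELB*, *NFKBIA*, *NFKBIZ* and *IRF1*, which also fell, did not stand in that order, nor did *C3* and *CFB*. The share of all genes in that order was not counted, and a link of *IL6* to the serum amyloid A genes was not tested. *IL6ST*, the gene of the signaling subunit gp130, fell by 1.48 from 1803 CPM to between 460.0 and 917.6 CPM.

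*CEBPB*, a C/EBP transcription factor of the acute phase, was at 662.5 CPM in the parental library, 137.3 CPM in clone 1, 134.1 CPM in the library labelled clone 5 and 106.9 CPM in clone 6. It fell by 2.39 on the log2 scale (SE 0.31, edgeR adjusted p = 0.259, DESeq2 adjusted p = 7.03e-07), and its partner *CEBPG* fell by 2.66 (SE 0.37). All clones were far below the parental library in both genes. Of the NF-kappaB genes, *RELB* fell by 2.14, *NFKBIZ* by 2.25, *NFKBIA* by 1.74, *NFKB2* by 1.51 and *NFKB1* by 1.28 on the log2 scale, with edgeR adjusted p from 0.306 to 0.397. *RELA* and *REL* each had a log2 fold change of -0.50 and did not pass (edgeR adjusted p = 0.592 and 0.659). *IRF1*, an interferon-induced factor, fell by 1.71 (SE 0.42, edgeR adjusted p = 0.327). *STAT3*, the factor downstream of gp130, was at 216.7 CPM in the parental library and 235.7 to 261.3 CPM in the clones and did not pass. *SOCS3*, of the same list, was at 38.5 CPM in the parental library and 45.0 to 77.9 CPM in the clones and did not pass either.

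Not all acute phase genes followed *SAA1*. Of 20 other acute phase proteins, 13 were tested, 1 fell and none rose, and the median was 1.24. *PTX3*, the long pentraxin, fell by 2.68 on the log2 scale (SE 0.58, edgeR adjusted p = 0.310), from 38.5 CPM to 8.44, 6.14 and 3.38 CPM in clones 1, 5 and 6. *SERPINA1* (alpha-1 antitrypsin) was at 12.3 CPM in the parental library and at 82.0, 7.95 and 16.4 CPM in clones 1, 5 and 6, and *CP* (ceruloplasmin) at 9.77 and at 4.21, 52.0 and 20.2 CPM. Each of these had its highest value in a different clone, and neither passed. *A2M* reached 41.1 CPM in the library labelled clone 5 alone, against 0.166 to 0.375 CPM in the other 3 libraries.

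**Figure D4:**
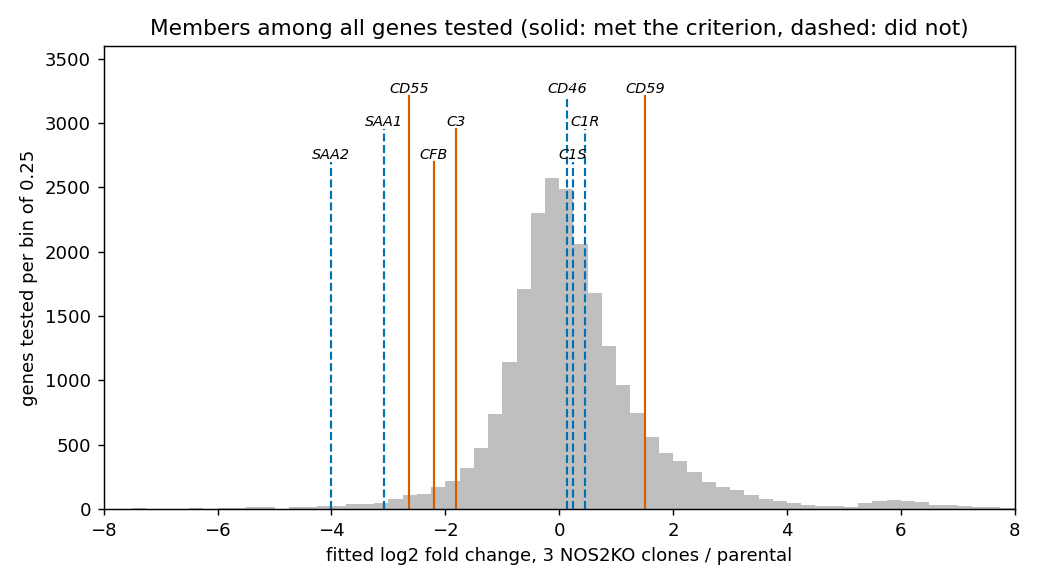
Histogram of the fitted log2 fold changes (3 NOS2KO clones over the parental library) of the 22511 genes tested in bins of 0.25, with the 9 genes drawn as lines (solid, met the criterion; dashed, did not). *SAA2*, *SAA1*, *CD55*, *CFB* and *C3* lie in the left tail, *CD46*, *C1S* and *C1R* near the center, and *CD59* to the right.

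Among the fold changes of all genes tested, 0.662% lay below that of *SAA2*, 1.31% below *SAA1*, 1.95% below *CD55*, 2.87% below *CFB* and 4.20% below *C3*, while 13.5% lay above *CD59*. The neighborhoods of the genes did not show shifts of that size in their medians. Genes within 1 Mb that reached 10 CPM in a library had a median log2 fold change of -0.14 around *SAA1* and *SAA2* (14 genes), -0.02 around *C3* (25 genes), 0.14 around *CFB* (44 genes), -0.03 around *CD55* (11 genes) and -0.32 around *CD59* (11 genes). In the same order of neighborhoods, 2, 1, 1, 1 and 1 genes fell and 1, 2, 7, 1 and 1 rose, beside 5.34% and 4.24% of all genes tested. The sets around *SAA1* and *SAA2* each hold the other gene. In a bulk library, fewer expressing cells and less RNA per expressing cell cannot be told apart for any of the 9 genes.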

How the data were processed

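The authors deposited 1 file of raw gene counts per library. Per the labels, oligo(dT)-enriched NEBNext Ultra II libraries were sequenced as 150-base pairs, and the processing notes name bcl2fastq 2.17, Trimmomatic 0.36, STAR 2.5.2b and featureCounts of Subread 1.5.2 on GRCh38. Strand and overlap settings are not given in the sources used here. GENCODE release 29 gave symbols to 56898 of 57500 genes. Coordinates are those of the files, and 6 of the 9 genes have the same start and end in GENCODE.

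From the deposited counts, edgeR 4.0.16 (filterByExpr, TMM, glmQLFit, glmQLFTest, R 4.3.3) compared 3 clones with 1 parental library over 22511 genes, with Benjamini-Hochberg adjustment over all of them, residual df 2 and common dispersion 0.319. Intervals of fold changes use the SE of the fit. Single-clone ratios carry 95% exact Clopper-Pearson intervals, which cover counting error only, since reads had no molecular identifiers. Nothing in the labels gives separate cultures within a group, so p-values measure the spread between clones. Scripts were tested on simulated counts. Alternatives were DESeq2 1.42.0, RLE, upper quartile and library size scaling, other filters, robust and bias-adjusted fits, prior count 2, SAA1 and SAA2 summed, and each clone left out.

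The 9 genes and the lists were chosen with earlier results of these data known. Pathway genes were named where they met the criterion (the 20 smallest p of 25), or where they reached 10 CPM with log2 ratios beyond 1 of one sign in all 3 clones. *C3AR1*, *LIFR*, *NFKB2*, *PIGW* and other pathway genes named beyond that rule were chosen after their values were seen. Some genes of the lists enter the counts but are not reported here by name.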

Additional observations from a re-analysis of the deposited data

How the results depend on the processing

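Across 13 alternatives that refit the data, 102 of 110 fold changes of the 9 genes kept direction and side of the threshold. *SAA1* met the criterion without clone 1 (log2 fold change -5.67, with a range of -5.67 to -2.53 over the clones left out). *SAA2* met it with DESeq2 (-3.99), with bias-adjusted quasi-likelihood (-4.00), with library size scaling (-4.08), with no filter (-4.00) and without clone 1 or clone 6 (range -6.29 to -3.49 over the clones left out). *C1S* turned to -0.47 without clone 6 (range -0.47 to 0.51). The causes were not tested. Leaving out a clone gave 3 to 5 genes that fell, 5 being without clone 1. With an adjusted p under 0.05 in place of the criterion, 0 fell and 0 rose in edgeR, where 4 had an unadjusted p under 0.05, and DESeq2 gave 4 genes with an adjusted p under 0.05. Of the pathway genes, 18 fell in the edgeR fit, 22 with DESeq2 and 16 to 26 with a clone left out, 26 being without clone 1. In the same fits 7, 13 and 6 to 11 of them rose, 11 being without clone 1. Over all genes, 1202 fell with edgeR, 1144 with DESeq2 and 1608 without clone 1. In turn, 955 rose with edgeR, 1591 with DESeq2 and 1791 without clone 1, and 1 (edgeR) against 1095 (DESeq2) had an adjusted p under 0.05. *C3*, *CFB*, *CD55* and *CD59* met the criterion in every refit, with *C3* at -2.02 to -1.57, *CFB* at -2.41 to -2.07, *CD55* at -2.89 to -2.48 and *CD59* at 1.36 to 1.59 over the clones left out, fits with 1 residual degree of freedom. No paired analysis was possible because the parental cells have 1 library and the clone numbers name clones only. Depth limits *SAA2*, *SAA4*, *SAA2-SAA4*, *FPR2* and *KRT14*, among others, which had 10 counts or fewer in a library. It also limits *XDH*, which was at 0.0811 CPM in clone 6.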

Other observations

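For *SAA1* and *C3*, the genes with the most similar profile were sought among 10709 tested genes that reached 10 CPM somewhere, by Euclidean distance over the 3 log2 ratios of clone to parental library after adding 0.5 counts. Nearest to *SAA1* were *SLC7A2* (distance 0.79), *XDH* (0.91) and *KRT75* (1.21). *SLC7A2*, which encodes a cationic amino acid transporter that carries arginine, was at 55.6 CPM in the parental library, 11.9 CPM in clone 1, 2.30 CPM in the library labelled clone 5 and 0.649 CPM in clone 6. *XDH*, the gene of xanthine dehydrogenase, was at 10.4, 4.04, 0.507 and 0.0811 CPM, and *KRT75*, a keratin gene, at 21.1, 3.12, 0.844 and 0.213 CPM in the same order. All 3 genes share the parental library with *SAA1* in every ratio, and of them *KRT75* fell by the criterion (log2 fold change -3.92, edgeR adjusted p = 0.379).

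Nearest to *C3* were *CNRIP1* (distance 0.20), *SH2B2* (0.21) and *PRMT3* (0.24). *PRMT3*, an arginine methyltransferase gene, was at 105.9 CPM in the parental library and at 39.6, 21.5 and 27.8 CPM in clones 1, 5 and 6.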
